A study of Mus musculus with 20 samples.

Results

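The tumor necrosis factor (TNF) superfamily pairs ligands, most of them made as membrane proteins, with receptors that trimerise on binding them. Some receptors carry a death domain and can recruit the caspase-8 machinery, others bind TRAF adaptors and signal through NF-κB, and a few are decoys that bind ligand without signalling. In the colon they are best known from the crosstalk between epithelium, stroma and immune cells during inflammation and repair. Described here are 10 members other than the paired TNF receptors Tnfrsf1a (TNFR1) and Tnfrsf1b (TNFR2), out of 35240 gene symbols in the data. They were picked by name, by a rule that uses no measured value but was written with earlier results of these data known: 7 receptors (Tnfrsf9, Tnfrsf12a, Tnfrsf11b, Tnfrsf21, Tnfrsf10b, Fas and Ltbr) and 3 ligands (Tnf, Tnfsf10 and Tnfsf9).

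Expression was measured by mRNA sequencing of colonoids, which are organoids grown from colonic crypts in Matrigel under IntestiCult medium. One genotype was wildtype (WT, C57BL/6), and the other was Tnfr2-/-, a whole-body deletion of Tnfrsf1b kept on a C57BL/6 background and made in cells of another mouse strain. The cultures had gone through 5 passages and a 70-µm filter, and RNA was taken on each of the first 3 days, on day 5 and on day 7, counted as days post-passage (DPP). Each genotype was represented by 2 mice, each with 1 library per day, giving 20 libraries in 10 groups of 2. The crypts came from the distal colon of male and female mice aged 8 weeks. No cytokine was added as a treatment according to the labels. The first 3 days are called early, the other days late. The libraries of a mouse are repeated samples of the same animal, and reading the replicate number as the mouse is an interpretation of the labels.

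Values are size-factor-normalised TPM, a per-length abundance summed over the transcripts of a gene and called normalised expression. Differences are log2 fold changes on the log2(value + 1) scale from limma, with Benjamini-Hochberg adjustment over 13539 genes, and a gene is called at an adjusted p under 0.05. The values do not hold the read depth of each library, for which the study gives only an approximate total, so the number of reads behind a gene at a few units is unknown and possibly small. The targeted gene Tnfrsf1b lay between 11.1 and 21.9 in WT and between 2.71 and 11.5 in Tnfr2-/- libraries, lower by a log2 of -1.35 over all days (SE 0.167, limma adjusted p 9.72e-05). It was lower by -1.72 early (adjusted p 1.16e-04) and by -0.79 late (0.0323), and within Tnfr2-/- colonoids it rose by 1.02 from early to late (0.00191). The late effect minus the early one was 0.94 (0.182) and was not called. By qPCR of other samples, the study reported no Tnfr2 transcript in Tnfr2-/- colonoids. Where the Tnfrsf1b signal left in the Tnfr2-/- libraries comes from was not tested. The labelled tissue was checked by 6 epithelial markers, whose summed level was 11323 or more in every library. Of the 6, Epcam (0.36, adjusted p 0.0335) and Cdh1 (0.25, 0.0221) were called over all days, both higher in Tnfr2-/- colonoids, and none was called early or late. With the mouse as a correlated block, both calls were lost (0.0703 and 0.0553). All 8 fibroblast markers were also present. The study found Pdgfra+ fibroblasts in such cultures, and each level below is that of a mixed culture. In bulk RNA, fewer cells of a type and less RNA per cell cannot be told apart.

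Of the 10 members, 9 had a mean of at least 1 and were tested. Over all days 3 of the 9 were called, all higher in Tnfr2-/- colonoids, namely Tnfrsf9, Tnfrsf11b and Tnfrsf12a, against 7.6% of all genes tested in either direction. At the early days only Tnfrsf9 was called of the 9, against 1.2% of all genes. At the late days 4 of the 9 were called, all higher (Tnfrsf9, Tnfrsf11b, Tnf and Tnfrsf12a), against 6.45% of all genes. The median log2 fold change of the 9 was 0.10 over all days, 0.05 early and 0.52 late, beside -0.03, -0.01 and -0.05 over all genes. None was called when each mouse was first averaged over its days and 2 mice were set against 2 (limma), a comparison in which 7, 3 and 0 of all genes were called over all, early and late days, and 1522, 1095 and 1896 had an unadjusted p under 0.05. With no filter on low values 1 member, Tnfrsf9, was called at the late days.

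**Figure D1:**
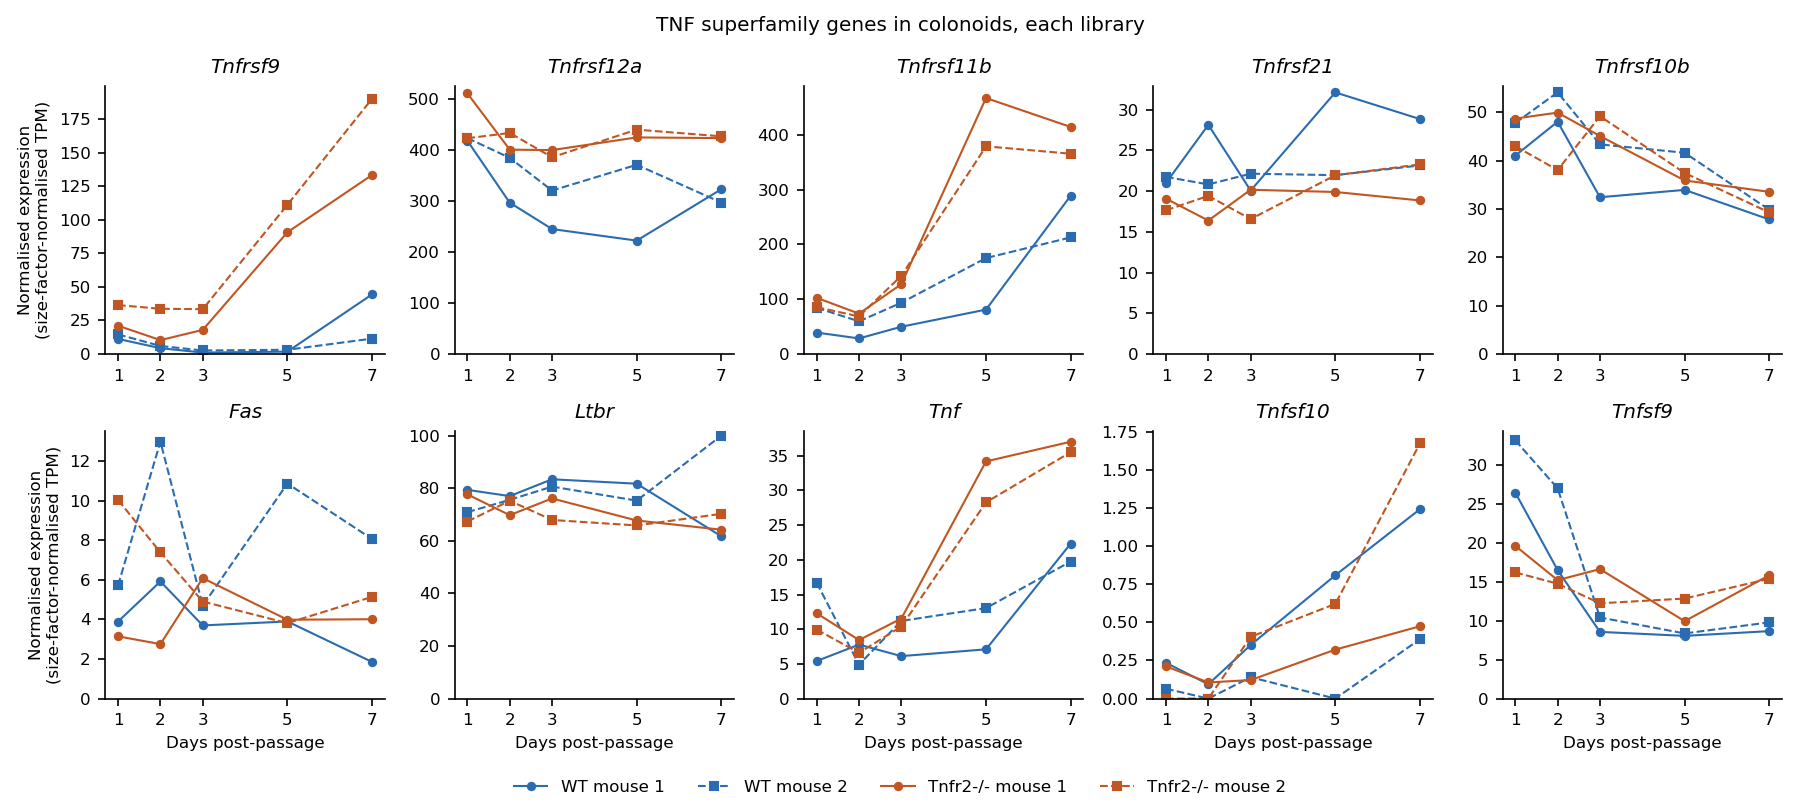
Normalised expression (y axis, linear, from 0) of the 10 genes by days post-passage (x axis), with 1 line per mouse and 1 point per library. Tnfrsf9 and Tnfrsf11b were higher in both Tnfr2-/- mice than in both WT mice on each day, and Tnf on days 5 and 7.

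Tnfrsf9 encodes 4-1BB (CD137), a costimulatory receptor best known on activated T cells. It had the largest genotype difference of the 9 tested genes, and its level rose in Tnfr2-/- colonoids as the cultures aged. Its normalised expression at 1, 2, 3, 5 and 7 DPP, the order used for every gene below, began with 11.2, 4.34, 1.07, 1.77 and 44.5 for WT mouse 1. WT mouse 2 gave 14.6, 5.997, 2.61, 3.16 and 11.5. Both WT courses fell to their lowest values at 3 and 5 DPP and were higher again at 7 DPP, by very different amounts in the 2 mice. Tnfr2-/- mouse 1 gave 21.1, 10.4, 18.0, 90.8 and 134, and Tnfr2-/- mouse 2 gave 36.5, 33.7, 33.4, 111 and 190. At each day both Tnfr2-/- libraries lay above both WT libraries, and the ratio of group means ran from 2.23 at 1 DPP to 41.0 at 5 DPP. The late Tnfr2-/- mean was 132 ± 43.0 against 15.2 ± 20.0 in WT (SD, n = 4 libraries each, from 2 mice at 5 and 7 DPP). Here and below, an SD over early or late libraries mixes mice and days.

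The log2 fold change of Tnfrsf9 was 2.73 over all days (SE 0.393, limma adjusted p 4.22e-04), 1.99 early (SE 0.343, adjusted p 0.0114) and 3.83 late (SE 0.419, adjusted p 2.21e-04). By size of rise it ranked 4 of 13539 genes over all days and 6 late. All 3 calls were kept when any single library was left out. On mouse means the adjusted p was 0.119 over all days, 0.388 early and 0.117 late. With 1 mouse left out entirely, the early call was lost without WT mouse 1 (0.0796), Tnfr2-/- mouse 1 (0.121) or Tnfr2-/- mouse 2 (0.437), and the late call without Tnfr2-/- mouse 2 (0.0547). Within Tnfr2-/- colonoids Tnfrsf9 was higher late than early by 2.38 (SE 0.383, adjusted p 0.00100), a call lost without Tnfr2-/- mouse 1 (0.141) or mouse 2 (0.0743), and within WT the difference was 0.55 (SE 0.383, adjusted p 0.337). The difference between these changes, 1.83 (95% confidence interval 0.67 to 3.00), did not pass over all genes (adjusted p 0.209).

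Tnfrsf9 lies on chromosome 4 from 150914562 to 150946102, plus strand (GRCm38), 5.67 Mb from Tnfrsf1b. A knockout made in cells of another strain keeps some of that strain's DNA around the deleted gene, and an effect of such flanking DNA on Tnfrsf9 cannot be told apart from one of the deletion. Further superfamily receptor genes sit within 10.8 Mb of Tnfrsf1b, namely Tnfrsf8, which is 0.0203 Mb away, Tnfrsf25, Tnfrsf14, Tnfrsf4 and Tnfrsf18. Tnfrsf8 and Tnfrsf25 had means of 0.271 and 0.428 and were not tested. Tnfrsf8 averaged 0.492 in WT and 0.0499 in Tnfr2-/- libraries, and Tnfrsf25 0.121 and 0.735, all too low to compare. Tnfrsf14 (7.36), Tnfrsf4 (1.56) and Tnfrsf18 (3.40) were tested and not called for genotype. The gene also overlaps Camta1 on the other strand, whose mean late level was 29.0 ± 13.0 in Tnfr2-/- and 13.0 ± 1.36 in WT (SD, n = 4 each). Libraries were made with a stranded kit, and whether strand was used in quantification is not given in the sources used here.

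The 9 annotated Tnfrsf9 transcripts start at several sites, and RefSeq (GRCm38.p6) lists a pair of start sites for the gene on the plus strand. The window of 250 bases before and 50 bases after each start is shown because the transcripts raised in Tnfr2-/- colonoids divide between these starts and others. The windows are chr4:150919905-150920204 (upstream) and chr4:150927749-150928048 (downstream), and capitals mark matches to the κB consensus, the motif bound by NF-κB.
Tnfrsf9 upstream: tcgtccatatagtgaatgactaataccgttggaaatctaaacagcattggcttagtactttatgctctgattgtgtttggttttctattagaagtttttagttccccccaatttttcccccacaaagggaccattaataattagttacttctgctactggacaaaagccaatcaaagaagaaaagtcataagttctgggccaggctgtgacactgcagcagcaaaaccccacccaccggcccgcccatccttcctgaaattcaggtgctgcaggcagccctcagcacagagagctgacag
Tnfrsf9 downstream: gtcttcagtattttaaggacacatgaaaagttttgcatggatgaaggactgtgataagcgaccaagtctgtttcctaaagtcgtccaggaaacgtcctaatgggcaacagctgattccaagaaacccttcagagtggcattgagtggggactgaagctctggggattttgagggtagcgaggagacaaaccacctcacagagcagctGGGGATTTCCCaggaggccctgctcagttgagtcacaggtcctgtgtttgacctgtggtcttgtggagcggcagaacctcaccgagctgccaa

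The downstream window holds 1 run of 11 bases, GGGGATTTCCC, beginning 43 bases before the start, in which 3 overlapping matches fall when both strands are searched. The upstream window holds no match. Of 32851 promoter windows of 300 bases, 4.505% held a match. A match is a string of letters and not a measured site. RefSeq windows were given for 7 of the 10 genes, 8 windows in all, and the downstream Tnfrsf9 window was 1 of 8 with a κB consensus match. No window was given for Tnfrsf11b, Tnfrsf10b and Tnfsf9.

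The 2 transcripts that start within 100 bases of the upstream start, Tnfrsf9-204 and Tnfrsf9-201, held 66.2% of Tnfrsf9 in early and 70.4% in late WT libraries. They held 55.0% in early and 63.6% in late Tnfr2-/- libraries. The 3 transcripts at the downstream start, next to the κB match, held 0.0815% or less in WT and early Tnfr2-/- libraries and 2.68% in late Tnfr2-/- libraries. That last share rests on few libraries: Tnfrsf9-209 was at 5.61 and 3.66 in Tnfr2-/- mouse 1 at 5 and 7 DPP and listed at 0 in the other 18 libraries, and Tnfrsf9-208 was at 3.40 in mouse 2 at 7 DPP and at 0 in the other 3 late ones. The remaining 4 transcripts, which start more than 100 bases from either site, held between 29.6% and 45.0%. Tnfrsf9-204 alone had a mean of 58.4 in late Tnfr2-/- against 9.12 in late WT libraries, and Tnfrsf9-202 had 28.2 against 0.379. Shared reads are divided among transcripts by a statistical model, and the reads behind each share are unknown. The split was not tested.

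**Figure D2:**
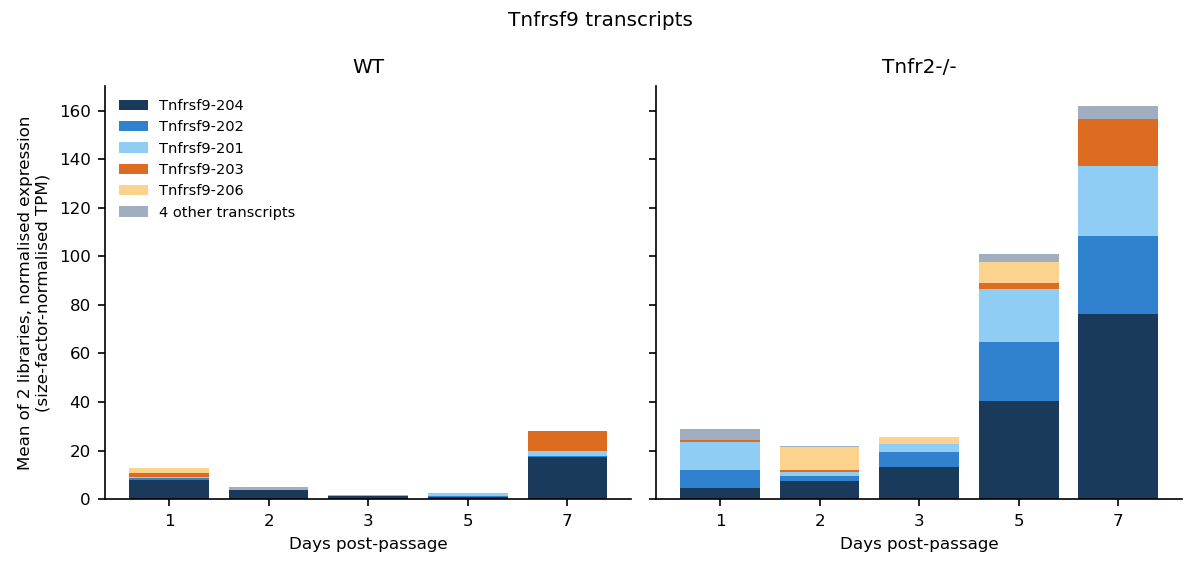
Mean normalised expression (y axis) of Tnfrsf9 transcripts by days post-passage (x axis) in WT and Tnfr2-/- colonoids, stacked, with each bar the mean of 2 libraries and the 4 lowest transcripts pooled. Tnfrsf9-204 was the largest part at 7 DPP in both genotypes.

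Tnfrsf12a encodes Fn14, the receptor for the ligand TWEAK, whose gene is Tnfsf12. It was the most abundant of the 10 genes, with a mean of 378 over all libraries, above 97.2% of the genes tested. WT mouse 1 gave 417.6, 296.4, 244.7, 222.0 and 322.7, and WT mouse 2 gave 422.9, 384.1, 320.1, 370.5 and 296.6. Tnfr2-/- mouse 1 gave 510.4, 400.1, 399.3, 424.1 and 422.8, and Tnfr2-/- mouse 2 gave 422.5, 432.9, 385.3, 439.4 and 426.2. All libraries started near 420 or above at 1 DPP, the WT libraries then lay lower, and from 2 DPP on both Tnfr2-/- libraries were above both WT libraries at each day. The late Tnfr2-/- libraries spread little, at 428 ± 7.63, against 303 ± 62.0 in WT (SD, n = 4 each).

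Its log2 fold change was 0.39 over all days (SE 0.0893, limma adjusted p 0.0127) and 0.52 late (SE 0.145, adjusted p 0.0493). Early it was 0.31 (SE 0.119, adjusted p 0.270) and not called, but it was called without WT mouse 2 (0.44, 0.0167). The call over all days was lost without WT mouse 1 (0.26, 0.0602), without Tnfr2-/- mouse 1 or 2 (0.171 and 0.146) and on mouse means (0.394). The late call was at the threshold, and it was lost in 15 of 20 fits that left out 1 library, with the smallest fold change, 0.34, without WT mouse 1 at 5 DPP (adjusted p 0.180). It was also lost with the mouse as a correlated block (0.0576), on mouse means (0.290), without WT mouse 1 (0.0703) or either Tnfr2-/- mouse (0.387 and 0.422), with libraries rescaled to the same sum (0.44, adjusted p 0.0786), with quantile normalization (0.38, 0.131), with a pseudocount of 0.1 (0.0525), without a mean-variance trend (0.0809) and with no filter on low values (0.0791). The change from early to late was -0.19 in WT (adjusted p 0.329) and 0.02 in Tnfr2-/- colonoids (adjusted p 0.952), neither called, though the WT one was called without mouse 2 at 5 DPP (-0.38, 0.0335). Its ligand Tnfsf12 had a mean of 5.79 and was not called in any of the 6 comparisons, though its late minus early difference in Tnfr2-/- colonoids (-1.04, adjusted p 0.0824) was called with each mouse paired with itself as a fixed block (0.0393).

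Tnfrsf11b encodes osteoprotegerin, a secreted decoy receptor that binds RANKL (Tnfsf11) and TRAIL (Tnfsf10). It rose with culture age in both genotypes and was higher in Tnfr2-/- colonoids. WT mouse 1 gave 39.1, 28.4, 49.8, 81.0 and 289, and WT mouse 2 gave 84.4, 59.5, 93.6, 175 and 213. Tnfr2-/- mouse 1 gave 103, 73.6, 127, 467 and 414, and Tnfr2-/- mouse 2 gave 85.3, 68.6, 143, 379 and 365.3. Both Tnfr2-/- libraries lay above both WT libraries at each of the 5 days, by a narrow margin at 1 DPP (85.3 against 84.4) and by a ratio of means of 3.30 at 5 DPP. The 4 late Tnfr2-/- values exceeded every other value of the gene.

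The log2 fold change of Tnfrsf11b by genotype was 0.98 over all days (SE 0.197, limma adjusted p 0.00625) and 1.23 late (SE 0.303, adjusted p 0.0294), and 0.81 early was not called (SE 0.247, adjusted p 0.161). The late call was lost without any 1 of the 4 late Tnfr2-/- libraries (0.0703 to 0.0957), without WT mouse 1 at 5 DPP (0.139) or without WT mouse 2 at 7 DPP (0.0796), and also with no filter on low values (0.0556). Both calls were lost on mouse means (0.347 and 0.198) and without either Tnfr2-/- mouse (0.107 and 0.121 over all days, 0.333 and 0.396 late). Leaving out WT mouse 2 altogether brought the early difference to 1.32 (adjusted p 7.22e-04). Late against early, it rose by 1.64 in WT (SE 0.277, adjusted p 0.00155) and by 2.06 in Tnfr2-/- colonoids (SE 0.277, adjusted p 3.42e-04), the latter lost without either Tnfr2-/- mouse (0.0923 and 0.136). These are comparisons in which 20.1% and 20.3% of all genes were called, and 3 and 4 of the 9 members.

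None of the 3 death-domain receptors was called by genotype. Tnfrsf21 encodes DR6. WT mouse 1 gave 21.01, 28.1, 20.1, 32.1 and 28.9, and WT mouse 2 gave 21.7, 20.8, 22.1, 22.0 and 23.2. Tnfr2-/- mouse 1 gave 19.1, 16.4, 20.2, 19.9 and 18.9, and Tnfr2-/- mouse 2 gave 17.7, 19.4, 16.6, 22.0 and 23.3. Tnfr2-/- values were below WT values at 1, 2 and 5 DPP and the genotypes overlapped at 3 and 7 DPP, with WT mouse 1 holding the 3 highest values. Over all days its log2 fold change was -0.29 (95% confidence interval -0.48 to -0.10, limma adjusted p 0.0535), just outside the threshold. It was called, as lower in Tnfr2-/-, with libraries rescaled to the same sum (-0.36, 0.0172), at a minimum mean of 5 (0.0489) and without WT mouse 2 altogether (-0.40, 0.0280). It was also called without WT mouse 2 at 2 DPP (0.0458) or at 5 DPP (0.0348), or without Tnfr2-/- mouse 1 at 3 DPP (0.0485).

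Tnfrsf10b encodes DR5, the mouse receptor for TRAIL. It ranged from 27.8 to 54.1 in WT and from 29.3 to 49.9 in Tnfr2-/- libraries, with overlap at 4 of 5 days. At 3 DPP the Tnfr2-/- values, 45.1 and 49.2, were above the WT values, 32.4 and 43.3. The genotype difference was 0.05 over all days (interval -0.13 to 0.22, adjusted p 0.798), and with libraries rescaled to the same sum it was -0.026. It fell by 0.41 from early to late in WT (SE 0.119, limma adjusted p 0.0292) and by 0.41 in Tnfr2-/- colonoids (SE 0.119, adjusted p 0.0261). The late mean was 33.3 ± 6.10 against 44.5 ± 7.42 early in WT, and 34.0 ± 3.56 against 45.6 ± 4.59 in Tnfr2-/- colonoids (SD, n = 4 and 6). Each of these calls was close to the threshold. The WT one was lost in 5 of 20 fits that left out 1 library (without WT mouse 2 at 1, 2 or 3 DPP, or WT mouse 1 at 5 or 7 DPP). The Tnfr2-/- one was lost in 6 of 20 (without mouse 1 at 1, 2 or 5 DPP, or mouse 2 at 3, 5 or 7 DPP). On mouse means both were lost (0.0773 in WT and 0.0732 in Tnfr2-/-), and the WT one was lost without any 1 of the 4 mice (0.0972 to 0.124), as was the Tnfr2-/- one without either of its own mice (0.256 and 0.381).

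Fas, the receptor for Fas ligand, was low and uneven. It ranged from 1.85 to 13.0 with a median of 5.21 in WT libraries and from 2.75 to 10.03 with a median of 4.46 in Tnfr2-/- libraries. WT mouse 2 was above WT mouse 1 at each of the 5 days, and the genotypes overlapped at 4 of 5. The genotype difference was -0.15 over all days with a wide interval, -0.72 to 0.41 (limma adjusted p 0.784). The gene for its ligand, Fasl, was listed at 0 in all 20 libraries.

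Ltbr encodes the lymphotoxin beta receptor, which on stromal and epithelial cells receives signals from lymphoid cells. It was the steadiest of the 9 tested genes by its SE. It ranged from 61.7 to 100.01 in WT, both extremes at 7 DPP, and from 64.2 to 77.7 in Tnfr2-/- libraries. Tnfr2-/- values were below WT values at 2, 3 and 5 DPP. The difference was -0.15 over all days (interval -0.31 to 0.00, limma adjusted p 0.237) and -0.23 late (adjusted p 0.325), and the latter became -0.40 (0.0415) when WT mouse 1 at 7 DPP was left out. Its ligand genes were near absent: Lta and Ltb had means of 0.0189 and 0.109, and Tnfsf14 was listed at 0 in all 20 libraries.

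Among the ligands, Tnf, which signals through TNFR1 and TNFR2, was low early and higher late. WT mouse 1 gave 5.41, 7.78, 6.12, 7.10 and 22.3, and WT mouse 2 gave 16.7, 4.90, 11.2, 13.0 and 19.8. Tnfr2-/- mouse 1 gave 12.3, 8.44, 11.5, 34.2 and 37.0, and Tnfr2-/- mouse 2 gave 9.95, 6.60, 10.4, 28.3 and 35.5. The genotypes overlapped at 1, 2 and 3 DPP, and all 4 late Tnfr2-/- values exceeded every WT value. The late means were 33.8 ± 3.83 in Tnfr2-/- and 15.6 ± 6.87 in WT (SD, n = 4 each).

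The late log2 fold change of Tnf by genotype was 1.17 (SE 0.292, limma adjusted p 0.0302). Early it was 0.26 (SE 0.238, adjusted p 0.718) and over all days 0.62 (SE 0.205, adjusted p 0.0731). The latter was called without WT mouse 2 (0.85, 0.0189) or without its library at 1 DPP (0.76, 0.0139) or 3 DPP (0.70, 0.0480). The late call was lost in 7 of 20 fits that left out 1 library, namely any of the 4 late Tnfr2-/- libraries (0.0743 to 0.0976), WT mouse 1 at 5 DPP (0.140) or 7 DPP (0.0594), or WT mouse 2 at 7 DPP (0.0715), and also on mouse means (0.226), without either Tnfr2-/- mouse (0.342 and 0.386) and with no filter on low values (0.0547). Within Tnfr2-/- colonoids Tnf rose by 1.69 from early to late (SE 0.267, adjusted p 8.65e-04), a call lost without either Tnfr2-/- mouse (0.141 and 0.158). Within WT the difference was 0.78 (SE 0.267, adjusted p 0.0548), and it was called when each mouse was paired with itself as a fixed replicate block (0.0353) or a correlated one (0.0390), on mouse means (0.0332), at a minimum mean of 5 (0.0490) without WT mouse 2 (0.90, 0.0134), without its library at 1 DPP (0.00800) or 3 DPP (0.0407), and when the 5 DPP library of WT mouse 1 was left out (0.0467). The late effect of genotype exceeded the early one by 0.92 (interval 0.11 to 1.73, adjusted p 0.369).

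Tnfsf10, which encodes TRAIL, was at or near absent: its highest value was 1.67 and its mean 0.363, so it was not tested. Tnfsf9 encodes the ligand of 4-1BB. WT mouse 1 gave 26.5, 16.5, 8.57, 8.06 and 8.67, and WT mouse 2 gave 33.2, 27.0, 10.4, 8.37 and 9.79. Tnfr2-/- mouse 1 gave 19.6, 15.2, 16.6, 9.95 and 15.8, and Tnfr2-/- mouse 2 gave 16.2, 14.8, 12.2, 12.9 and 15.4. The WT libraries fell between 2 and 3 DPP and stayed low, while the Tnfr2-/- libraries stayed between 9.95 and 19.6. Both Tnfr2-/- libraries were therefore below both WT libraries at 1 and 2 DPP and above them at 3, 5 and 7 DPP.

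Within WT, Tnfsf9 fell by 0.99 from early to late (SE 0.156, limma adjusted p 0.00110), and within Tnfr2-/- colonoids the difference was -0.22 (SE 0.156, adjusted p 0.372). The genotype difference was -0.21 early (adjusted p 0.589) and 0.56 late (SE 0.171, adjusted p 0.0711), neither called. The late one was called with quantile normalization (0.65, 0.0371) and without WT mouse 1 or 2 at 2 DPP (0.0449 and 0.0454). The difference between these effects was 0.77 (interval 0.29 to 1.24, adjusted p 0.191). In this comparison of late with early genotype effects 0 of the 9 genes were called by limma, and 0.148% of all genes were called. At an unadjusted p under 0.05 were 3 of the 9 (Tnfsf9, Tnfrsf9 and Tnf) and 1583 of all 13539 genes. Tnfsf9 overlaps Gm11110, a non-coding gene on the other strand, whose mean was between 1.89 and 3.61 in the 4 groups of genotype and phase.

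**Figure D3:**
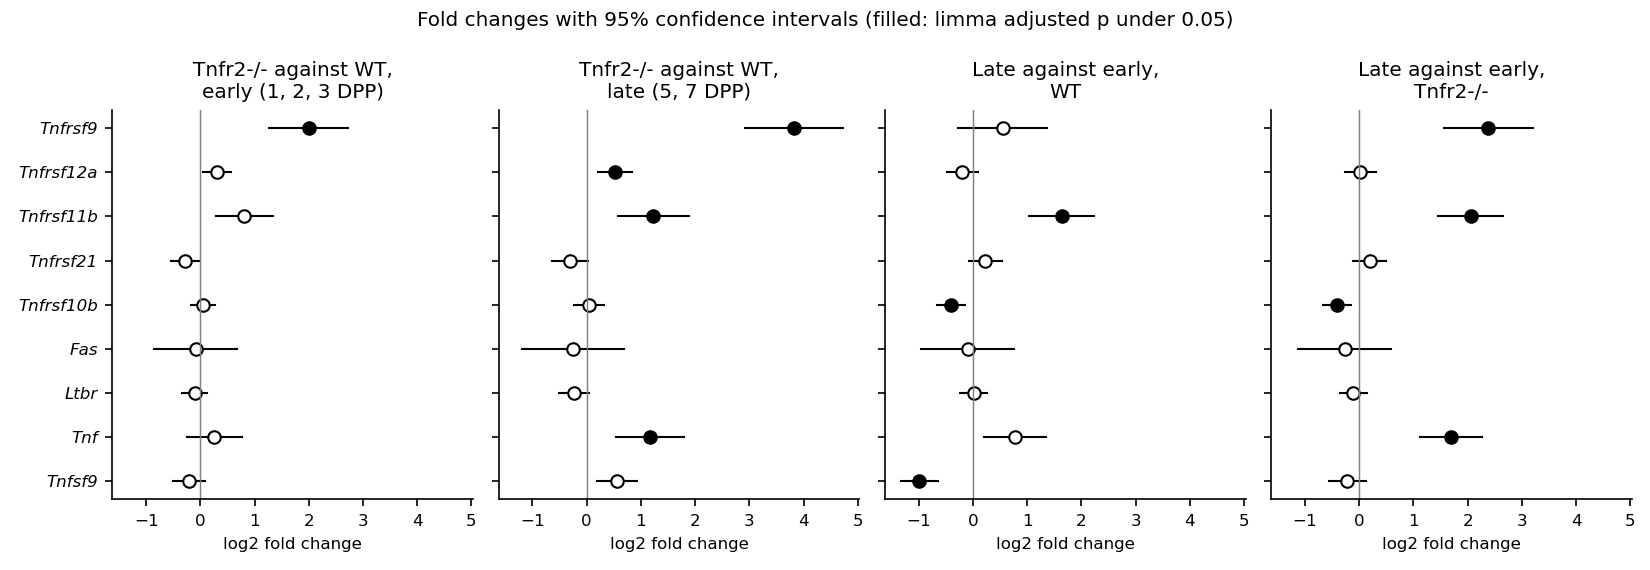
Log2 fold changes (x axis) of the 9 tested genes (y axis) in 4 comparisons, as points with 95% confidence intervals from limma, filled where the adjusted p was under 0.05. By genotype, 1 gene was called early and 4 late, all higher in Tnfr2-/- colonoids.

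Separation of libraries gave a similar list at the late days. The 4 Tnfr2-/- libraries did not overlap the 4 WT libraries for 5 of the 9 genes (Tnfrsf9, Tnfrsf12a, Tnfrsf11b, Tnf and Tnfsf9), all higher in Tnfr2-/-, against 11.4% of all genes in either direction. Over the 20 libraries the closest pair among the 9 was Tnfrsf11b and Tnf, with a Pearson r of 0.92 on the log2 scale (0.83 within the 10 WT and 0.98 within the 10 Tnfr2-/- libraries). For the receptor Tnfrsf9 and its ligand Tnfsf9 it was 0.15 (0.31 in WT and -0.36 in Tnfr2-/-). The libraries share mice and days, so these values are descriptions.

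The genes whose courses over the 20 libraries were most like those of the members were found by Pearson r among all genes tested. For Tnfrsf9 they included Ier3 (0.95), P4ha1 (0.94), Dhrs3 (0.94) and B4galt1 (0.94). Dhrs3 lies on chromosome 4, 0.285 Mb from Tnfrsf1b. For Tnfrsf11b the closest was Sat1 (0.97), for Tnf it was Itgav (0.94), for Tnfrsf12a it was Tmsb4x (0.95), and Arhgef3 was among the 5 closest to both Tnfrsf11b (0.96) and Tnf (0.93). The closest to Tnfrsf10b was Jpt2 (0.90), and the highest r was 0.84 for Tnfrsf21, 0.78 for Ltbr and 0.76 for Fas.

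Markers of other cells moved with some of these genes. The summed level of the 8 fibroblast markers was 2633 to 3916 early and 3210 to 6968 late in Tnfr2-/- libraries, and 1890 to 3581 early and 1075 to 3483 late in WT libraries. Of the 8, Dcn was higher in Tnfr2-/- colonoids late (log2 2.74, limma adjusted p 2.16e-05) and Dcn and Thy1 over all days (1.65 and 1.37). The others were not called over all days, among them Col1a1 at 0.71 (adjusted p 0.0637), Col1a2 at 0.51 (0.158) and Lum at 0.16 (0.755). Col3a1 was at 0.02 (0.971) and Pdgfra at -0.10 (0.808). The median of the 8 was 0.45 over all days and 0.84 late. Dcn was also called early (0.93, 0.0242) and in the late minus early genotype effect (1.81, 0.0403). Col3a1 and Dcn made up most of the sum, with means of 1444 and 936. Across the 20 libraries, the log2 level of Tnfrsf9 had a Pearson r of 0.62 with the marker sum, Tnfrsf12a 0.65, Tnf 0.43 and Tnfrsf11b 0.34. The highest WT value of Tnfrsf9, 44.5, came from a library with a fibroblast sum of 1517, below that of every Tnfr2-/- library. The other WT library at 7 DPP had 11.5 at a sum of 3483. The Tnfr2-/- libraries at 7 DPP had the highest Tnfrsf9 values, 134 and 190, at the highest sums, 6416 and 6968. The part of the fibroblasts in the genotype differences was not tested.

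**Figure D4:**
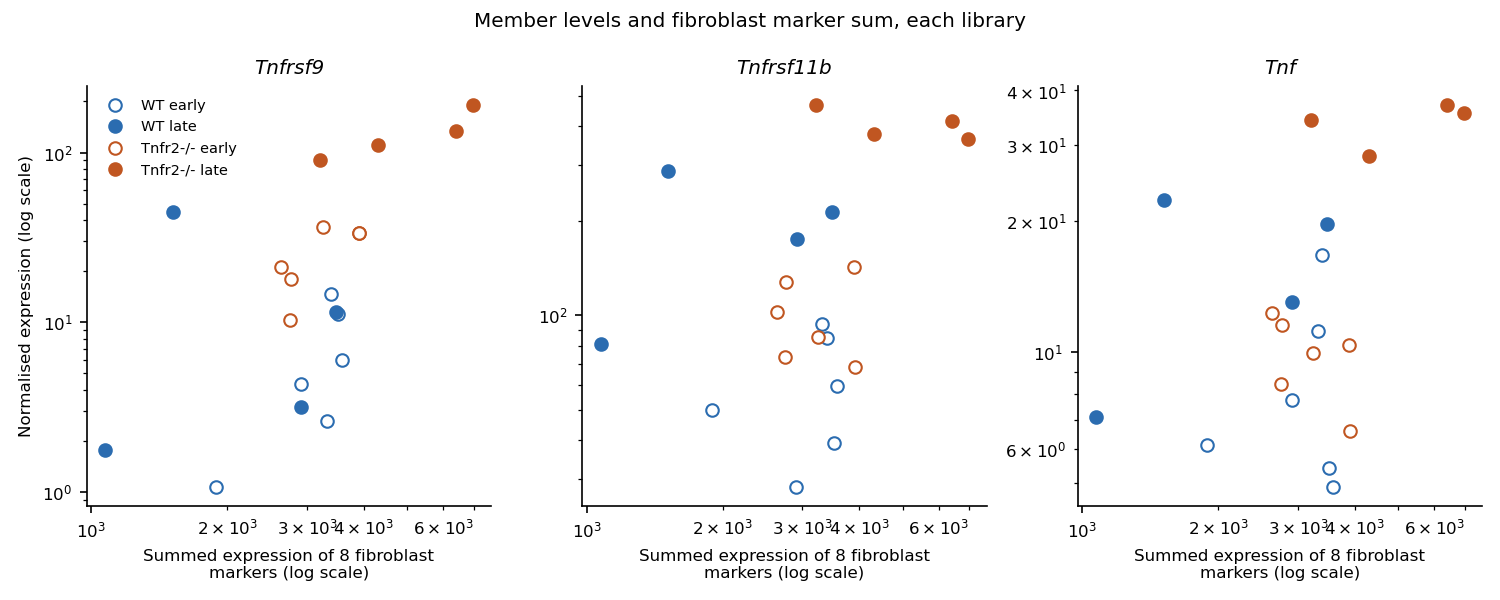
Normalised expression of Tnfrsf9, Tnfrsf11b and Tnf (y axes, log scale) against the summed level of 8 fibroblast markers (x axes, log scale), 1 point per library, with open points early and filled points late. The 4 late Tnfr2-/- libraries were the highest for all 3 genes, over fibroblast sums from 3210 to 6968.

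For the blood lineage, 9 markers were examined, and 5 of them (Ptprc, Cd3e, Cd3g, Cd79a and Adgre1) were under 1 in every library, including the pan-leukocyte and T-cell genes. The summed level of the 9 was 8.75 to 16.9 in WT and 15.5 to 45.2 in Tnfr2-/- libraries. Only 2 of the 9 were tested. Of these, Cd68, a lysosomal protein gene abundant in macrophages, was called (log2 1.13 over all days, limma adjusted p 4.49e-04). The sum was mostly Cd68, whose mean was 17.6, against 1.53 for Lyz2 and 0.218 or less for each of the other 7. The log2 level of Tnfrsf9 had an r of 0.80 with this sum over the 20 libraries. It was 0.68 for Tnfrsf12a, 0.60 for Tnfrsf11b, 0.54 for Tnf, -0.47 for Tnfrsf21 and -0.62 for Ltbr. Over all days, where 7.6% of all genes were called, 1 of 5 colonocyte markers was, Car1, which was lower (-3.02, adjusted p 0.0206). Of 5 goblet-cell markers 4 were tested and 1 was called, Fcgbp, also lower (-1.54, 0.0402). That call was lost with the mouse as a correlated block (0.0655). The median over all days was -0.81 for the colonocyte and -1.91 for the tested goblet markers, with Muc2 at -1.89 (0.0858). With the goblet sum, r was -0.74 for Tnfrsf10b and 0.66 for Tnfrsf21. Late against early, 3 of the 4 tested goblet markers were called higher in each genotype, where 20.1% (WT) and 20.3% (Tnfr2-/-) of all genes were called. Goblet sums differed widely among WT libraries, from 2.75 to 1705, and their part in the results was not tested.

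The rest of the superfamily was mostly low or absent. Of 19 other receptor genes 11 were tested, and of 15 other ligand genes 5. Tnfrsf23, a decoy receptor for TRAIL, was the highest of them, with late means of 355 in Tnfr2-/- and 251.3 in WT, and was not called by genotype. Over all days, where 7.6% of all genes were called, 1 of the 11 receptors was, Tnfrsf19 (TROY), which was lower at -1.18 (SE 0.258, limma adjusted p 0.0109). Late, Tnfrsf19 was again lower at -1.83 (0.0147), with means of 0.809 and 5.36 in Tnfr2-/- and WT, and Tnfrsf26 was higher at 1.30 (0.0166), with means of 17.4 and 7.21. None of the 5 ligands was called by genotype over all, early or late days. Late against early, 2 of the 5 were called in Tnfr2-/- colonoids and 1 in WT, all higher, where 20.3% and 20.1% of all genes were called. With each mouse paired with itself as a fixed block, 3 were called in each genotype. Tnfsf18, which encodes the ligand of GITR, was called in both (1.32, adjusted p 0.00953, and 1.04, 0.0325). Within Tnfr2-/- colonoids Tnfsf11, the RANKL gene bound by osteoprotegerin, was higher late than early (1.63, SE 0.330, adjusted p 0.00412), at 7.16 ± 3.55 against 1.70 ± 1.39 (SD, n = 4 and 6). Its WT means were 4.16 and 1.62, and the WT difference was 0.85 (SE 0.330, adjusted p 0.0870), called when each mouse was paired with itself as a fixed block (0.0498). The difference between these changes was not called.

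**Figure D5:**
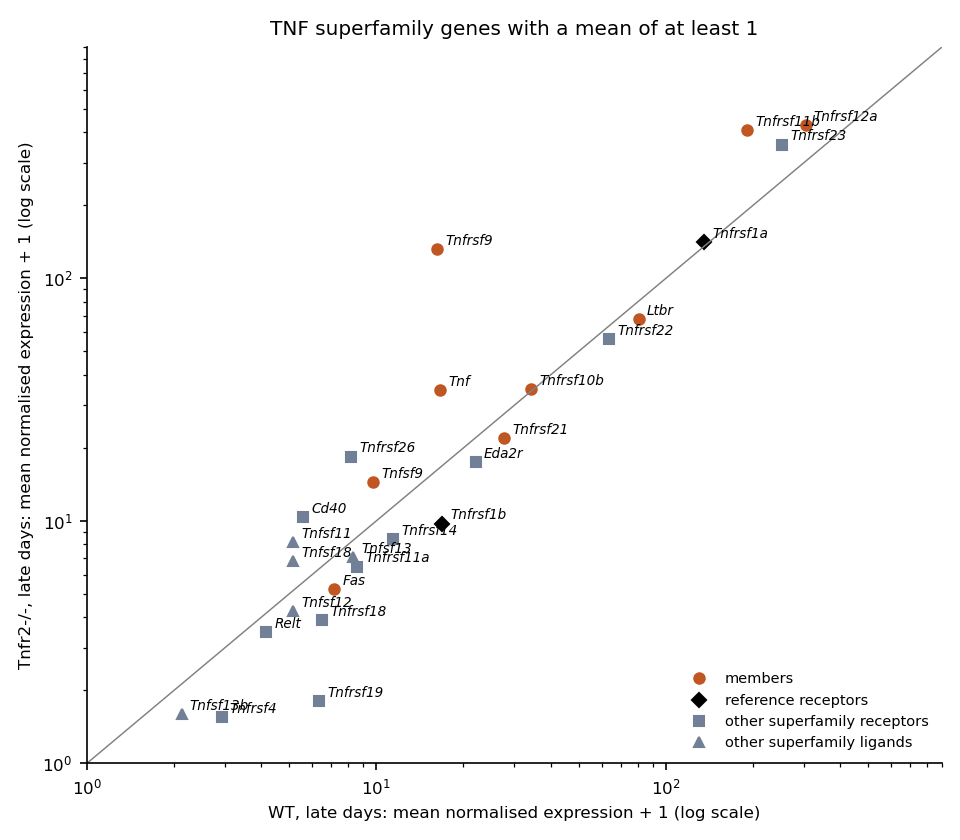
Mean normalised expression plus 1 at the late days in WT (x axis) and Tnfr2-/- colonoids (y axis), both log scales, for superfamily genes with a mean of at least 1 over all libraries, with n = 4 libraries per mean and a line of equal level. Tnfrsf9 stood farthest above the line, at 15.2 in WT and 132 in Tnfr2-/- (means before adding 1), and Tnfrsf19 below it.

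Downstream of these receptors, 16 of 17 listed TRAF and death-signalling genes were tested. Over all days 2 were called, where 7.6% of all genes were, both higher in Tnfr2-/- colonoids: Casp8, the initiator caspase of death receptors (0.44, SE 0.120, limma adjusted p 0.0325), and Birc3, which encodes cIAP2, an inhibitor of that route (0.56, SE 0.164, 0.0450). The same genes were called late, Casp8 at 0.53 (0.0433) and Birc3 at 0.92 (0.0214), where 6.45% of all genes were, and none of the 16 was called early. With the mouse as a correlated block, Casp8 lost both calls (0.0790 over all days and 0.0612 late) and Birc3 the one over all days (0.103). Their median was -0.03 over all days and 0.11 late. From early to late, Birc3 rose by 1.39 in Tnfr2-/- colonoids (SE 0.192, adjusted p 3.83e-04) and by 0.78 in WT (SE 0.192, adjusted p 0.0123), and in all 6 of the 16 were called in Tnfr2-/- colonoids and 2 in WT, each of them higher, where 20.3% and 20.1% of all genes were called. Traf6, Ripk1, Casp8 and Birc2 were among the 6. In WT, Traf5 (-0.70, adjusted p 0.0697) was called lower late with the mouse as a correlated block (0.0426). It was also called with each mouse paired with itself as a fixed block (0.0221). Fas and Tnfrsf10b are known p53 targets, and of 10 other p53 target genes 1 was called over all days (against 7.6% of all genes), Cdkn1a, a cell-cycle inhibitor, at 0.22 (SE 0.0615, 0.0394), with 0 early and 0 late. That call was lost with the mouse as a correlated block (0.0897). Late against early, where Tnfrsf10b was lower, 4 of the 10 were called in Tnfr2-/- colonoids (1 higher and 3 lower). In WT 2 were called (1 in each direction). Among them Bax was lower in both (-0.69, adjusted p 0.00890, and -0.78, 0.00472), and Trp53inp1 higher in both (1.20, 8.61e-04, and 1.24, 8.80e-04). With each mouse paired with itself as a fixed block, Mdm2 was also called lower in Tnfr2-/- (-0.33, 0.0491) and Ccng1 in WT (-0.33, 0.0205).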

How the data were processed

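Libraries were prepared from total RNA with a stranded mRNA kit and read from a single end. Per the labels and the study's methods, the authors processed reads with CASAVA, pseudoaligned them to mm10 transcripts with kallisto and compared genotypes with sleuth. The deposited signal is TPM per transcript, which the authors had divided by a library-specific size factor. Its sum per library was 900655 to 1111080. The table's p-values, q-values, test statistics, and mean and variance terms hold the authors' own comparison of genotypes and were not used. The study gives an approximate total of reads per sample only, and the table holds no reads per gene, so no counting error is given.

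Of 113974 lines, 781 repeated others and were dropped, and 199 transcripts without a symbol, at most 0.0989% of any library, were left out. Signal was summed per symbol to 35240 genes and tested as log2(value + 1) for 13539 genes with a mean of at least 1, with limma 3.58.1 (trend) in R 4.3.3 and Benjamini-Hochberg adjustment. The pseudocount understates changes of low genes. The genotype effect over all days used day as a factor. All other contrasts came from 1 fit with 10 group means. Standard errors are limma's. The code was tested on simulated data. Members and gene lists were chosen with earlier results of these data known, and all 10 members are described. Other genes were named from lists of superfamily genes, adaptors, p53 targets and cell markers, or from the 5 most like a member by Pearson r. A few of these genes are not reported here.

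The replicate number was read as the mouse, from the sample descriptions. Deviations from group means correlated at 0.0997 to 0.307 between days of a WT mouse, at -0.0511 to 0.0800 between days of a Tnfr2-/- mouse, and at -0.0536 to 0.0761 between same-numbered mice of the 2 genotypes. Pairing of each mouse with itself over days rests on the labels, read as naming the same animal, and not on these correlations, which in Tnfr2-/- covered a range similar to that between genotypes. Genotypes were not paired. The correlation across genes between the 2 mice of a group was 0.923 to 0.956. Loci are from GENCODE M21 (GRCm38) and promoter windows from RefSeq.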

Additional observations from a re-analysis of the deposited data

Results flagged for a closer look

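Of 40 sets of libraries (10 genes, genotype, early or late), 3 held a library set apart from the others by a gap that Dixon's criterion flags. Chance flags about 1 in 20 such sets. Tnfrsf21 was 28.1 in WT mouse 1 at 2 DPP, beside 20.1 to 22.1 in the other 5 early WT libraries. Fas was 13.0 in WT mouse 2 at 2 DPP, beside 3.696 to 5.92 in the other 5. In late Tnfr2-/- libraries, Fas was 5.14 in mouse 2 at 7 DPP, beside 3.81 to 4.01 in the other 3.

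For Tnfsf9, the genotype difference had opposite directions on different days: both Tnfr2-/- libraries were below both WT libraries at 1 and 2 DPP and above them at 3, 5 and 7 DPP. The ratio of the Tnfr2-/- mean to the WT mean was 0.601 at 1 DPP and 1.69 at 7 DPP. The difference between these days was not tested as such, and the late minus early genotype effect was 0.77 (limma adjusted p 0.191).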

How the results depend on the processing

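The number of called members over all days, 3, became 0 on mouse means and lay between 1 and 5 with a library or mouse left out (1 without either Tnfr2-/- mouse, 5 without WT mouse 2). Early, 1 became 0 on mouse means and lay between 0 and 3 (0 without WT mouse 1 or either Tnfr2-/- mouse, 3 without WT mouse 2). Late, 4 became 1 with no filter on low values and 0 on mouse means, and lay between 0 and 5 (5 without WT mouse 1 or 2 at 2 DPP, 0 without Tnfr2-/- mouse 2, and 1 without Tnfr2-/- mouse 1, any late Tnfr2-/- library, WT mouse 1 at 5 DPP or WT mouse 2 at 7 DPP). Late against early in Tnfr2-/- colonoids, 4 became 0 without either Tnfr2-/- mouse, where the lone mouse is assumed to vary like the WT mice, and lay between 0 and 4. No member was called in the difference of genotype effects under any alternative. The causes were not tested beyond the fewer samples.

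With the mouse as a correlated replicate block, 3, 1 and 3 members were called over all, early and late days, and 4 in each late against early comparison. All genes called were then 545, 110 and 743, against 1029, 162 and 873 without it. With each mouse paired with itself as a fixed replicate block, 4 members were called late against early in each genotype and 0 in the difference of effects, with 163 genes in all against 20. The replicate number shared by both genotypes names different animals, and that block gave 4, 1 and 4. Beside the calls given with their results, no other call of a member changed under a block except Tnfrsf21 over all days (adjusted p 0.0495). Where a block by mouse changed a printed call of another gene, its value stands with that gene.

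Directions turned only for differences that were not called, and the cause was not tested. Rescaled to the same sum, Tnfrsf10b was -0.026 over all days, -0.020 early and -0.035 late, Ltbr -0.063 late against early in WT and Tnfrsf12a -0.071 in Tnfr2-/-. With quantile normalization Tnfrsf10b was 0.028 in the difference of effects, Ltbr -0.015 in WT and Tnfrsf12a -0.082 in Tnfr2-/-. With a library or mouse left out, the range over all days was -0.072 to 0.163 for Tnfrsf10b, -0.046 to 0.245 for Tnfsf9 and -0.62 to 0.32 for Fas. Early it was -0.47 to 0.30 for Fas, -0.083 to 0.180 for Tnfrsf10b, -0.020 to 0.535 for Tnf and -0.416 to 2.04e-05 for Tnfsf9. Late it was -0.055 to 0.137 for Tnfrsf10b and -0.99 to 0.48 for Fas. For the difference of effects it was -0.079 to 0.064 for Tnfrsf10b, -0.21 to 0.13 for Tnfrsf21, -0.62 to 0.27 for Fas and -0.30 to 0.060 for Ltbr. Late against early in WT it was -0.17 to 0.20 for Ltbr, -0.54 to 0.35 for Fas and -0.027 to 1.13 for Tnfrsf9, and in Tnfr2-/- -0.034 to 0.067 for Tnfrsf12a and -0.59 to 0.060 for Fas. The reads behind single values are unknown, which limits genes at a few units, such as Fas, Tnfsf10 and Tnfrsf9 in WT at 3 and 5 DPP.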
